A study of Homo sapiens with 6 samples.

Results

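The genes described here encode the folding and quality control machinery of the endoplasmic reticulum (ER): stress sensors and their transcription factors, chaperones, disulfide-forming oxidoreductases, the components of ER-associated degradation (ERAD), and the protein-conducting translocon. They were chosen by gene symbol from a list of 39 names, of which 38 had a row of their own among the 48114 gene rows of the table. The other name, VIMP, is an older name of SELENOS. By role there were 4 sensors and transcription factors, 11 chaperones and co-chaperones, 8 oxidoreductases, 12 ERAD genes, and 3 genes of the translocon and ER calcium. RNA was sequenced from TC-71, an established Ewing sarcoma cell line labelled as wild type, after 16 h with the inhibitor BEZ235 (it blocks PI3K and mTOR, kinases that drive cell growth), dissolved in dimethyl sulfoxide (DMSO). The controls were TC-71 cells given DMSO for the same 16 h, and the dose of BEZ235 is not given in the labels. Each group held 3 libraries, labelled as biological replicates of this 1 line.

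Secreted and membrane proteins enter the ER through the translocon, fold with chaperones, and form disulfide bonds with the help of oxidoreductases; proteins that fail to fold are drawn back into the cytosol by ERAD and degraded. When unfolded proteins build up, the sensors IRE1 (gene ERN1), ATF6 and PERK (gene EIF2AK3) start the unfolded protein response. IRE1 splices the XBP1 transcript into one that encodes an active transcription factor, ATF6 is cut in the Golgi to release another, and both raise chaperone and ERAD genes through short promoter elements.

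The best known of these elements are the ER stress response element (ERSE), searched here as CCAAT and CCACG with any 9 bases between them, and ERSE-II, searched as ATTGG and CCACG with any 1 base between them. Both strands of the RefSeq promoter windows (GRCh38.p14), 250 bases before to 50 bases after a transcript start, were searched for exact matches. Only 1 window per gene symbol was used, and other starts of a gene were not searched. A window was found for 35 of the 38 genes. ERSE holds the shorter motifs CCAAT and CCACG, and ERSE-II holds CCACG and the reverse complement of CCAAT. The promoters shown are those of the 3 genes with the largest falls (HSPA5, HYOU1 and HERPUD1) and of CANX, which has the element but rose with BEZ235. The 250 bases before the start are given, and capitals mark the exact matches (ERSE in HSPA5 and CANX, ERSE-II in HYOU1 and HERPUD1). HSPA5 lies on the minus strand at chr9:125241344-125241593, HYOU1 on the minus strand at chr11:119057206-119057455, HERPUD1 on the plus strand at chr16:56931892-56932141, and CANX on the plus strand at chr5:179698679-179698928.
HSPA5: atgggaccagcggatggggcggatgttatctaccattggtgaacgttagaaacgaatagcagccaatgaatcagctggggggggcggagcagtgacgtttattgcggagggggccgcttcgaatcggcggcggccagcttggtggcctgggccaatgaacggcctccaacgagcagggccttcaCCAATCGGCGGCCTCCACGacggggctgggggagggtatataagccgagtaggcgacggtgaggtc
HYOU1: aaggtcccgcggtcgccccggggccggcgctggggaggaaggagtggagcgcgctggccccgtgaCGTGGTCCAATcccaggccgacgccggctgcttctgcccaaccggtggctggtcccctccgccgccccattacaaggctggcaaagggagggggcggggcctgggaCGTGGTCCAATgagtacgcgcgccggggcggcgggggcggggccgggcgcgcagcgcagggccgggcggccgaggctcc
HERPUD1: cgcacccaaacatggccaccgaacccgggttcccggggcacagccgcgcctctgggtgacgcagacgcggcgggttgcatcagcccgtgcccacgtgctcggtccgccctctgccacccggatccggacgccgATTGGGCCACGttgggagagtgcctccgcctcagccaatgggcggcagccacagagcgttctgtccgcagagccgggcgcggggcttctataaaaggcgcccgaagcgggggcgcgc
CANX: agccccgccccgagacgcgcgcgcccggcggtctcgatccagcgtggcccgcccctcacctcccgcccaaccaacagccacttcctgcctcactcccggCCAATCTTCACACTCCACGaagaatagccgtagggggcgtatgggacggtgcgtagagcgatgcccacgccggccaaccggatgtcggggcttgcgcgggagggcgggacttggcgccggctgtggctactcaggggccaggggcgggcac

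The matches of the remaining genes are given alone, in the orientation of the motif, with capitals for its fixed letters, so that the spacers can be compared. The 9 bases between the fixed letters of ERSE differed from gene to gene. Positions are those of the base of the match farthest upstream along the gene, counted from the transcript start. They were -52 in XBP1 (chromosome 22, 28800603 to 28800621), -80 in CRELD2, -194 and -89 in HSP90B1, -225 in CALR and -243 in ERO1B. The ERSE-II match of SDF2L1 was at -188. The matches of CRELD2, CALR, ERO1B and SDF2L1 and the proximal one of HSP90B1 lie on the strand opposite to the gene. Their printed CCAAT or ATTGG end is therefore the end nearer the transcript start.
XBP1: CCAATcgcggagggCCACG
CRELD2: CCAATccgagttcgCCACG
HSP90B1, distal: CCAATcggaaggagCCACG
HSP90B1, proximal: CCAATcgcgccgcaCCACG
CALR: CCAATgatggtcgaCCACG
ERO1B: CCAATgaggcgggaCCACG
SDF2L1: ATTGGtCCACG

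Most of these genes were lower with BEZ235. Values are normalized read counts as the authors deposited them, and the test was limma on log2(normalized count + 1) over all 23923 genes that passed a filter on low values, with a threshold of 0.05 on the Benjamini-Hochberg adjusted p; fold changes are on that log2 scale. All 38 genes passed the filter. Of these, 31 fell, 3 rose and 4 were not called, with a median log2 fold change of -0.94. Over all genes tested, 33.2% fell and 33.1% rose, with a median of -0.00085. A fall of at least 2-fold was called for 17 of the 38 genes and a rise of that size for 0, against 13.6% and 12.7% of all genes tested. The BEZ235 values lay wholly below the DMSO values for 32 of the 38 genes and wholly above them for 3, whereas 35.4% and 35.5% of all genes tested did so. Summed over the 38 genes, the normalized counts made up 0.578 to 0.642% of each DMSO library and 0.312 to 0.316% of each BEZ235 library. In bulk RNA, fewer cells of a type and less RNA per cell cannot be told apart.

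**Figure D1:**
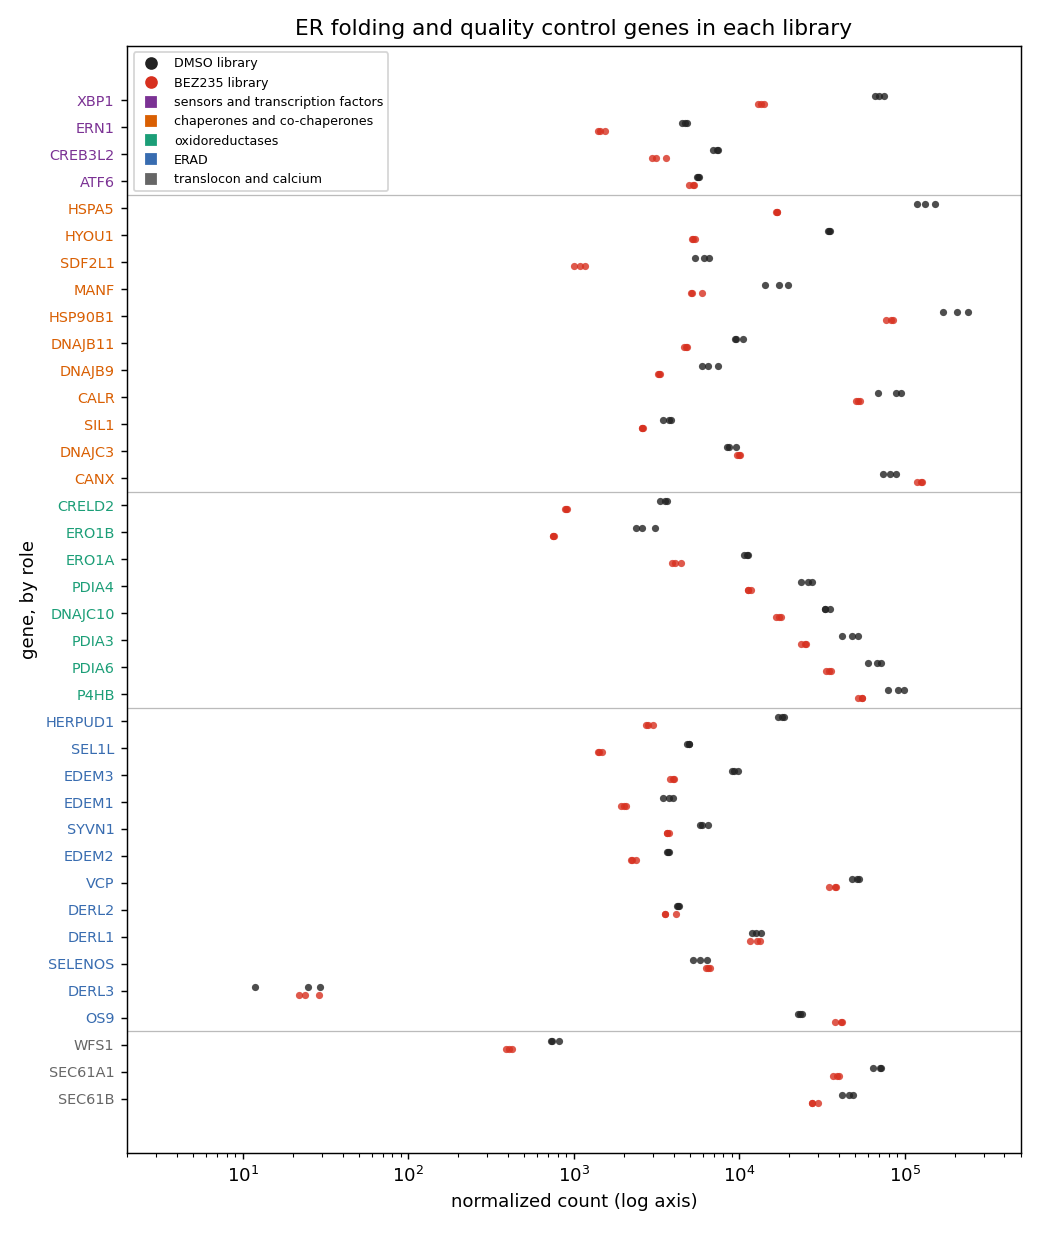
Normalized count on a log axis (horizontal) of each of the 38 genes (vertical, coloured and ordered by role), with 1 black point per DMSO library and 1 red point per BEZ235 library. The red points lie left of the black points for 32 genes, furthest for HSPA5, and right of them for CANX, OS9 and DNAJC3.

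The libraries held 184790722 to 233767211 reads, recovered from the normalized values. A count of 0 allows up to 3 reads, which were worth 2.50 to 3.47 normalized counts. Mitochondrial genome rows held 0.507 to 0.706% of BEZ235 libraries and 2.82 to 3.55% of DMSO libraries. Of 7 Ewing sarcoma markers none was at 0, and their summed level was 324811 to 337664 in BEZ235 and 412296 to 453536 in DMSO. The largest part of the sum was CD99. CD99, NR0B1 and CCND1 were lower, NKX2-2 and STEAP1 were higher, and FLI1 and PRKCB were not called. Summed epithelial markers, with KRT19 at 0, went from 19437 to 20332 in DMSO to 1124 to 1337 in BEZ235. Most of the DMSO sum was ESRP1, with a mean of 18015 in DMSO and 22.08 in BEZ235. Most of the BEZ235 sum was KRT8 and KRT18, with BEZ235 means of 638 and 412. KRT8 was lower (log2 fold change -0.99), EPCAM was higher (1.06), and KRT18 and CDH1 were not called. Blood markers (CD3E and HBB at 0) summed to 367 to 732 in DMSO and 861 to 936 in BEZ235, nearly all of it HBA1, while PTPRC and CD14 stayed below 10 on average in both groups. The 5 endothelial markers summed to 99.2 to 130.2 and 211 to 295, nearly all of it ESAM. The 6 fibroblast markers summed to 32408 to 33445 in DMSO and 39856 to 41640 in BEZ235, with COL3A1, PDGFRB and DCN higher and COL1A1 and LUM lower. The part of these shifts in the results below was not tested.

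Among the sensors and transcription factors, 3 of 4 fell and ATF6 was not called. XBP1, the factor activated by IRE1, had normalized counts of 66447, 74924 and 69484 in DMSO and 13604, 14153 and 13018 in BEZ235. Every DMSO library thus lay far above every BEZ235 library, and the log2 fold change was -2.37 (SE 0.059, limma adjusted p = 2.69e-10). Gene-level counts do not separate the spliced from the unspliced XBP1 transcript. ERN1, which encodes IRE1 itself, fell from 4676, 4808 and 4517 to 1447, 1551 and 1408, which is -1.67 on the log2 scale (SE 0.064, limma adjusted p = 3.96e-09). CREB3L2, a membrane-bound transcription factor of the ATF6 type that acts in secretory cells, fell from 7231 ± 244 to 3240 ± 319 (SD, n = 3), by 1.16 on the log2 scale.

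ATF6 stood apart from the other genes of this role. Its counts were 5583, 5703 and 5625 in DMSO and 5246, 5323 and 4954 in BEZ235. The groups did not overlap, but the log2 fold change was only -0.12 (SE 0.053, limma adjusted p = 0.06). Scaling the libraries to the same total shifted the median of all genes to -0.10, and with it ATF6 had -0.22 with an adjusted p of 0.00768.

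The chaperones showed the widest range, with 9 of 11 lower, 7 of them by at least 2-fold, 2 higher, and a median of -1.04. HSPA5, which encodes BiP, the Hsp70 chaperone of the ER lumen and the protein that holds the sensors inactive, had 151668, 117689 and 131791 in DMSO and 16808, 16979 and 16684 in BEZ235. The BEZ235 libraries were nearly equal, and the DMSO mean was 7.95 times theirs. Its change of -2.98 on the log2 scale (SE 0.080, limma adjusted p = 4.07e-10) was the lowest of the 38 genes and the 412th lowest of all genes tested. HYOU1, a large Hsp70-like protein that exchanges the nucleotide of BiP, had 34838, 35472 and 34109 in DMSO and 5366, 5171 and 5270 in BEZ235. Here the libraries of each group were close together, and the log2 fold change was -2.72 (SE 0.047). SIL1, which also exchanges the nucleotide of BiP, fell far less, from 3693 ± 212 to 2585 ± 18.9, by 0.51 on the log2 scale.

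HSP90B1, the Hsp90 of the ER, had 239438, 170280 and 207039 in DMSO and 84396, 82506 and 76668 in BEZ235. Although the DMSO libraries were spread widely, the lowest of them was above every BEZ235 library (log2 fold change -1.33, SE 0.105). MANF, a secreted factor that binds BiP, fell from 19613, 14289 and 17271 to 5963, 5091 and 5147. SDF2L1, a partner of the BiP complex, fell from 6055 ± 593 to 1090 ± 83.2 (log2 fold change -2.47, SE 0.086).

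The J-domain co-chaperones, which deliver substrates to BiP, did not move as one. DNAJB9 fell from 6635 ± 749 to 3275 ± 38.6 and DNAJB11 from 9804 ± 563 to 4749 ± 92.6, log2 fold changes of -1.01 and -1.04. DNAJC3, which is also known as an inhibitor of eIF2alpha kinases, had 9532, 8440 and 8665 in DMSO and 10142, 9919 and 9615 in BEZ235. Its rise was small (log2 fold change 0.16, SE 0.058, limma adjusted p = 0.0338). The adjusted p was 0.115 without BEZ235 replicate 1, 0.0849 without BEZ235 replicate 2, 0.0785 without DMSO replicate 2, 0.12 without DMSO replicate 3, 0.0979 without the mean-variance trend and 0.321 with total-count scaling, and the log2 fold change with that scaling was 0.06. An unnamed row that overlaps DNAJC3, at 19.2% of its level, also rose (log2 fold change 0.29).

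The lectin chaperones, which hold glycoproteins by their trimmed sugar chain, moved in opposite directions. CANX, the membrane-bound calnexin, had 88941, 73541 and 81791 in DMSO and 127197, 125886 and 118603 in BEZ235. All BEZ235 libraries were above all DMSO libraries (log2 fold change 0.61, SE 0.072, limma adjusted p = 2.12e-05). CALR, its soluble relative calreticulin, had 94552, 68538 and 87899 in DMSO and 52279, 53402 and 50526 in BEZ235, which is -0.67 on the log2 scale (SE 0.0996, limma adjusted p = 0.000122). Each kept its direction and its call under all 17 alternative settings, with log2 fold changes of 0.51 to 0.68 for CANX and -0.81 to -0.58 for CALR.

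**Figure D2:**
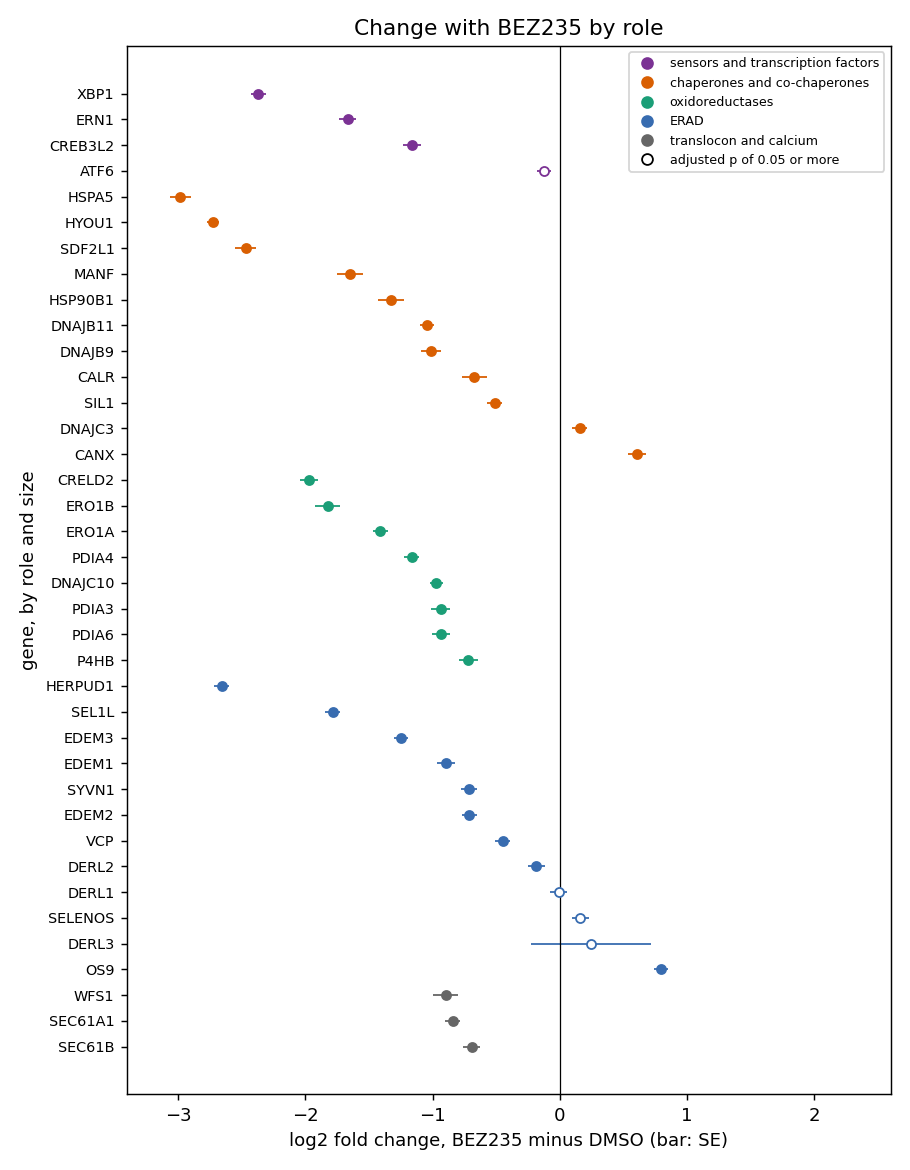
Log2 fold change, BEZ235 minus DMSO (horizontal, with bars for 1 SE), of the 38 genes (vertical, by role and size); filled points passed the limma threshold and open points did not. All 8 oxidoreductases lie left of 0, while chaperones and ERAD genes spread from below -2.6 to above 0.6.

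The oxidoreductases of the list all fell, 8 of 8, with log2 fold changes from -1.97 to -0.72 and a median of -1.07. Over all genes tested 33.2% fell. Among the protein disulfide isomerases, which form and rearrange disulfide bonds, P4HB had 98240, 78675 and 91525 in DMSO and 55291, 55325 and 51924 in BEZ235. PDIA6 had 72224, 59709 and 67539 against 35774, 34866 and 33360, and PDIA3, the isomerase that works with calnexin and calreticulin, had 51976, 41887 and 48077 against 25115, 25071 and 23735. These 3 abundant isomerases changed by a similar amount, with log2 fold changes of -0.72 (SE 0.077), -0.94 (SE 0.070) and -0.94 (SE 0.074). PDIA4 fell somewhat more, from 25668 ± 1889 to 11427 ± 313 (log2 fold change -1.17). DNAJC10, a J-domain protein that reduces disulfides of ERAD substrates, fell from 33825 ± 1320 to 17246 ± 552. The row of MCRIP1 overlaps P4HB by 17511 bases, at 42.0% of its level, and had a log2 fold change of -0.34. Oxidoreductases outside the list went both ways. PDIA5, TMX3 and TMX4 had log2 fold changes of -1.77, -0.88 and -0.60. PDIA2 and TMX2 rose, by 0.69 and 0.39, and TMX1 was not called.

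The oxidases that recharge these isomerases had larger falls than P4HB, PDIA3, PDIA4 and PDIA6, but ERO1A fell less than PDIA5. ERO1A went from 11080, 10660 and 11227 to 4421, 3935 and 4060, and its paralog ERO1B from 3112, 2372 and 2581 to 747, 752 and 760. The log2 fold changes were -1.41 (SE 0.059) and -1.82 (SE 0.098). CRELD2, an ER protein with disulfide-handling motifs, had the largest fall of the role, from 3665, 3322 and 3541 to 903, 879 and 898 (log2 fold change -1.97, SE 0.068, limma adjusted p = 1.79e-09).

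The ERAD genes were mixed, with 8 of 12 lower, 1 higher, 3 not called and a median of -0.58. The genes around the ubiquitin ligase at its core fell unequally. HERPUD1, which brings the ligase complex together, had 18641, 17142 and 18080 in DMSO and 2798, 3012 and 2720 in BEZ235, so that the DMSO mean was 6.31 times the BEZ235 mean (log2 fold change -2.66, SE 0.059, limma adjusted p = 1.35e-10). SEL1L, the adaptor of the ligase, fell from 4971, 4982 and 4821 to 1471, 1423 and 1394, by 1.78 on the log2 scale (SE 0.059). SYVN1, the ligase itself (also called HRD1), fell from 6064 ± 390 to 3691 ± 56.5, by 0.71 on the log2 scale (SE 0.060). The 93 bases at which SYVN1 overlaps MRPL49 lie in a row with more than 3 times its counts and a log2 fold change of -0.09.

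The mannose-trimming EDEM proteins, which mark glycoproteins for degradation, all fell: EDEM3 by 1.25, EDEM1 by 0.89 and EDEM2 by 0.71 on the log2 scale. EDEM3 went from 9349 ± 404 to 3935 ± 101 and EDEM1 from 3726 ± 251 to 2002 ± 76.3. OS9, a lectin that reads this mark for the SEL1L complex, went the other way. It had 23841, 22676 and 23176 in DMSO and 41376, 41603 and 37869 in BEZ235, with no overlap (log2 fold change 0.79, SE 0.054, limma adjusted p = 2.64e-07), and it rose in each of the 17 alternatives, by 0.70 to 0.87. An unnamed row that overlaps OS9 by 2026 bases, at 17.2% of its level, also rose (log2 fold change 0.67). ERLEC1, another lectin of ERAD but outside the list, fell from 10466 ± 1211 to 6198 ± 305 (log2 fold change -0.75, SE 0.079).

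The genes of the retrotranslocation step had log2 fold changes between -0.45 and 0.25. DERL1, a derlin of the ER membrane, had 13422, 11880 and 12571 in DMSO and 12735, 13301 and 11611 in BEZ235; the groups overlapped and the adjusted p was 0.911. Its log2 fold change was -0.0091, and 0.024 with quantile normalization. For DERL2 the log2 fold change was -0.18 (SE 0.069, limma adjusted p = 0.0353), and its adjusted p rose to 0.132 without BEZ235 replicate 2, 0.12 without BEZ235 replicate 3, 0.0547, 0.0532 and 0.0797 without DMSO replicates 1, 2 and 3, 0.136 with quantile normalization and 0.0962 without the mean-variance trend. DERL3 was near the limit of the table, at 11.9 to 29.2 in all 6 libraries, and 3507 of its bases overlap the row of SMARCB1. SELENOS, the selenoprotein that recruits the ATPase, was at 0.16 on that scale (SE 0.070, adjusted p = 0.0599; 0.00876 without DMSO replicate 1). VCP, the ATPase that pulls substrates into the cytosol, fell from 51193, 48232 and 52709 to 37962, 38538 and 34968, by 0.45 on the log2 scale (SE 0.058).

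SEC61A1 and SEC61B, the translocon genes of the list, fell by a similar amount. Related genes outside the list, given below, ranged more widely, from SEC61A2 at -1.95 to TRAM2 at 0.94. SEC61A1, the channel, had 71969, 64438 and 70604 in DMSO and 38736, 40013 and 36658 in BEZ235, and SEC61B, a small subunit, had 48862, 41806 and 46263 against 27342, 29911 and 27459. The log2 fold changes were -0.84 (SE 0.060) and -0.69 (SE 0.066). The row of RUVBL1 overlaps SEC61A1 by 6879 bases, at 30.2% of its level, and had a log2 fold change of -0.07. That of ALG2 overlaps SEC61B by 1289 bases, at 23.3% of its level, and had -0.65. WFS1, wolframin, an ER membrane protein linked to calcium balance, fell from 757 ± 47.3 to 406 ± 17.8 (log2 fold change -0.90, SE 0.10).

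The position of the promoter elements can be set beside these changes. ERSE was found in 7 of the 35 windows and ERSE-II in 3. Over all 27305 promoters of the same length the shares were 0.0806% and 0.0549%, and over those of genes tested 0.125% and 0.0883%. The list was chosen by role and names genes of the response that these elements serve. An excess over all promoters could thus be foreseen and is description only. Of the 10 genes with either element 9 fell and CANX rose, with a median log2 fold change of -2.17. The 25 without an exact match in the window searched had a median of -0.89. The 5 largest falls of the list, those of HSPA5, HYOU1, HERPUD1, SDF2L1 and XBP1, were all in genes with a match. Over all genes tested that had a window, 29 held either element, and 65.5% of these fell against 36.3% of those without. The shares that rose were 27.6% and 36.3%. Of those 29, the 19 outside the list divided into 10 lower and 7 higher, with a median of -0.57. FICD, which modifies BiP, stood at a log2 fold change of -2.61 (SE 0.089) and SERP1, a small translocon-associated protein, at -0.79 (SE 0.058). ALG12, an enzyme of N-glycosylation, stood at 0.30 (SE 0.068), and the largest rise of the 19 was that of CLEC4F, at 1.78. All of these were picked after their values were seen. A match is only a run of letters, and no binding was measured.

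**Figure D3:**
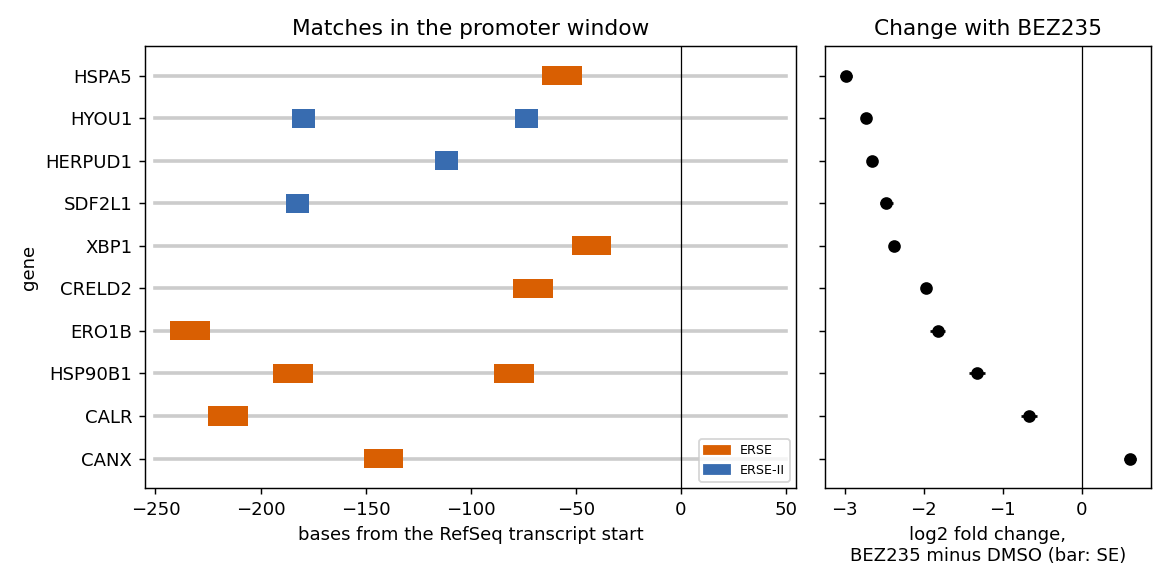
Left, positions of exact ERSE (orange) and ERSE-II (blue) matches in bases from the RefSeq transcript start, with a grey line for the window searched; right, log2 fold change, BEZ235 minus DMSO, with bars for 1 SE. The 10 genes are ordered by change, from HSPA5 at -2.98 to CANX at 0.61.

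Shorter or looser motifs were searched in the same way. TGACGTGG, the core of an element read by XBP1 and ATF6, was found in HYOU1, DNAJC10 and VCP (3 of 35, against 0.795% of all promoters and 0.912% of those of genes tested), whose log2 fold changes ran from -2.72 to -0.45. TGATGNAA, a form of the element read by ATF4, was found in 1 window, that of HERPUD1 (2.86% of the 35), against 3.67% of all promoters and 1.89% of those of genes tested. CCAAT alone was in 29 of the 35 windows, in 35.7% of all promoters and in 36.0% of those of genes tested; CCACG alone was in 24 windows, 37.9% and 47.4%.

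The DMSO libraries differed among themselves in these genes more than the BEZ235 libraries did. For the 36 genes with a mean of at least 1000, the median coefficient of variation was 6.11% in DMSO and 3.67% in BEZ235, against 5.40% and 4.36% for all 11064 tested genes at that level. DMSO replicate 1 was highest and DMSO replicate 2 lowest for 22 of the 38 genes, an order seen in 24.5% of all genes tested. It held for 9 of 11 chaperones, 6 of 8 oxidoreductases, 5 of 12 ERAD genes and 0 of 4 sensors and transcription factors. CALR, HSP90B1, MANF, HSPA5 and P4HB showed the order, whereas in XBP1 DMSO replicate 2 was the highest and DMSO replicate 1 the lowest. The lowest DMSO library was above the highest BEZ235 library for each of the 31 genes that fell. These genes were called from the same values, so this adds little to the calls.

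**Figure D4:**
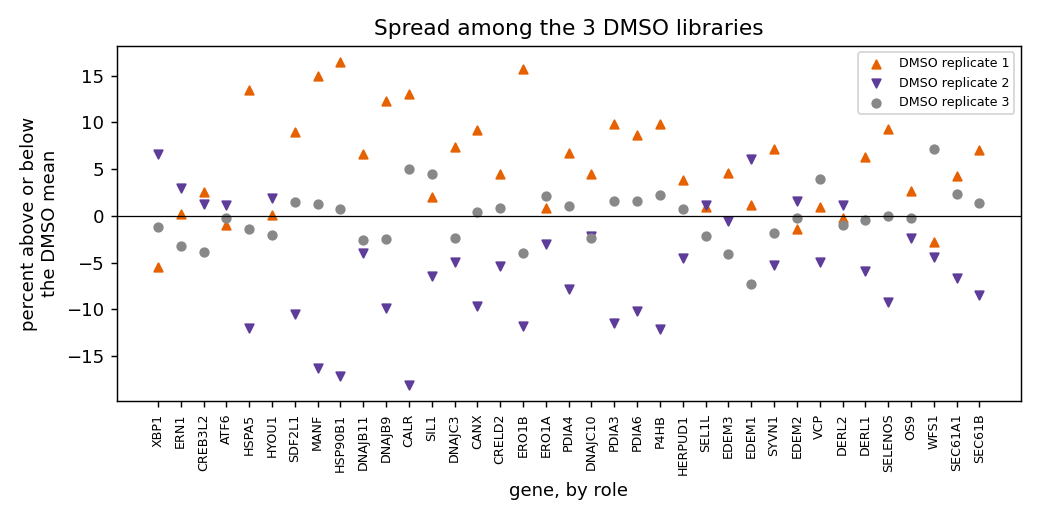
Percent by which each DMSO library lies above or below the mean of the 3 DMSO libraries (vertical) for the genes with more than 100 normalized counts (horizontal, by role; DERL3 is left out). Triangles pointing up (DMSO replicate 1) lie highest and triangles pointing down (DMSO replicate 2) lowest for most chaperones and isomerases, and the reverse is seen for XBP1.

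The wider ER machinery, taken from lists chosen by function, moved less uniformly. Of 157 further genes, all tested, 81 (51.6%) fell and 43 rose, with a median log2 fold change of -0.21, where 33.2% of all genes tested fell and 33.1% rose. The sensors outside the list moved in both directions. EIF2AK3, which encodes PERK, had 2299, 2094 and 2196 in DMSO and 1447, 1353 and 1398 in BEZ235 (log2 fold change -0.65, SE 0.069). ATF6B, a relative of ATF6, rose from 6170, 6896 and 6570 to 12771, 13827 and 12490, by 0.99 (SE 0.061), and the Golgi proteases that cut ATF6, MBTPS1 and MBTPS2, rose by 0.58 (SE 0.053) and 0.47 (SE 0.081). CREB3L4, a related membrane-bound factor, rose from 1666 to 6439. CREB3L1, of the same family, fell from 379 to 94.9 (log2 fold change -2.01, SE 0.19), and CREB3 was not called. Downstream of PERK, ATF4 had a log2 fold change of -0.43 and its partner DDIT3, also known as CHOP, fell from 37067, 42263 and 38544 to 10002, 10054 and 9296. PPP1R15A, which ends the block on translation, and TRIB3, a pseudokinase of the same branch, changed more, by -2.51 (SE 0.096) and -3.77 (SE 0.088) on the log2 scale. In this group of 17 regulators, 10 fell and 5 rose.

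Of 47 other folding factors, 27 fell and 10 rose, with a median of -0.26. CLGN, a calnexin relative, PDIA5 and the J-domain translocation partner SEC63 all fell, with log2 fold changes of -2.39, -1.77 and -1.29. KDELR1, a receptor that returns ER proteins from the Golgi, rose by 0.88 (SE 0.059), while KDELR2 and KDELR3 fell by 0.54 and 1.33; GPX7 rose by 0.64. Of 42 other ERAD factors, 17 (40.5%) fell and 12 rose, with a median of -0.05, where 33.2% of all genes tested fell and 33.1% rose. SVIP, an inhibitor of ERAD that binds VCP, fell by 1.70 (SE 0.074) and RHBDD1 by 0.99, and UBXN8 and the ubiquitin ligase RNF5 rose by 1.68 (SE 0.082) and 0.82.

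The translocation, signal peptidase and N-glycosylation list had 19 of 33 (57.6%) lower and 11 higher. For this list and those below, the shares over all genes tested were 33.2% lower and 33.1% higher. SRPRA, a subunit of the signal recognition particle receptor, and the Sec61 subunits SEC61A2 and SEC61G fell by 1.57, 1.95 and 1.11 on the log2 scale, while TRAM2 and TUSC3 rose by 0.94 and 0.44. Among 7 receptors that target ER fragments for autophagy, CCPG1 fell from 9813 to 1744 and RTN3 from 110422 to 33581, whereas TEX264, CALCOCO1 and SEC62 rose by 0.62, 0.61 and 0.25. Of 12 calcium pumps and channels 6 fell and 3 rose: the pump ATP2A2, the channel ITPR1 and TMBIM6 fell by 0.77, 1.62 and 0.95, and the ryanodine receptors RYR1 and RYR2 rose by 0.95 and 1.18.

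**Figure D5:**
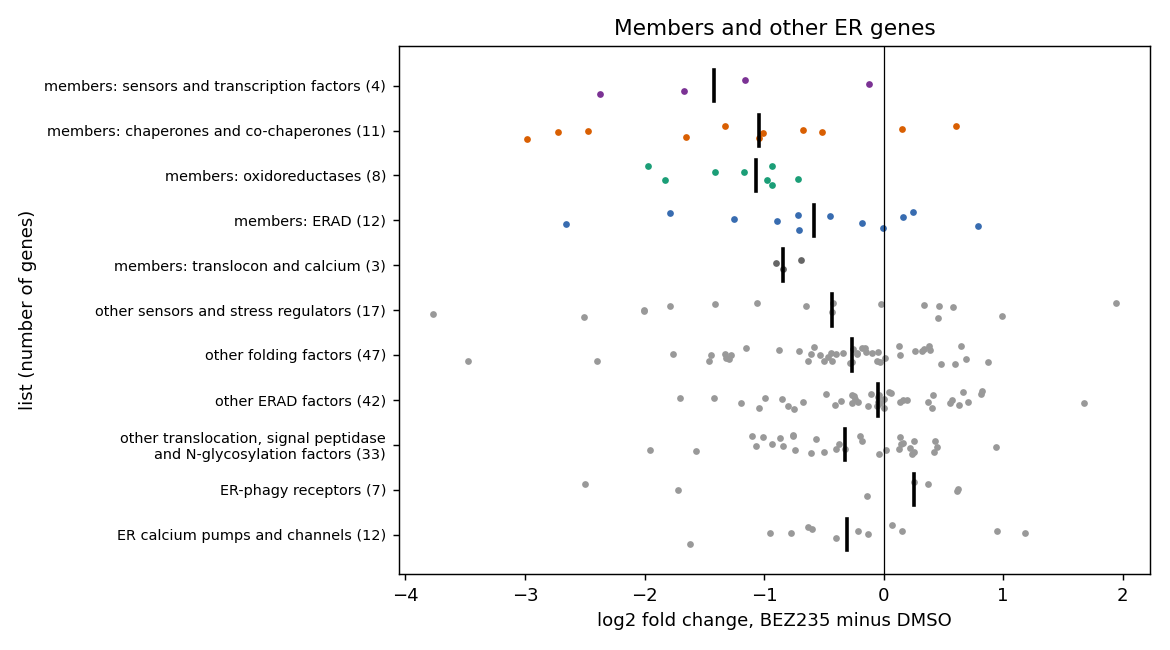
Log2 fold change, BEZ235 minus DMSO (horizontal), of each gene in the 5 roles (coloured) and in 6 lists of further ER genes (grey), with the number of genes in brackets and a black line at the median of each list. Medians of the 5 roles run from -1.42 to -0.58 and those of the 6 lists from -0.43 to 0.25.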

How the data were processed

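The authors deposited 1 table of gene read counts that had been normalized between libraries (a signal without negative values), with FASTDB gene rows and hg38 coordinates per the file headers. Tools named in the submitters' processing notes are STAR 2.4.0, DESeq, SAMtools, Picard and FastQC, with the build hg38; what each did, how reads were counted and whether strand was kept was not given in the sources used here. Control columns were matched to DMSO samples by number. Values of a column were multiples of 1 step, and 100% of them became whole reads when divided by it (tolerance 0.01).

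The filter kept rows with 10 or more normalized counts in 3 or more of the 6 libraries. The test was limma 3.58.1 (R 4.3.3) with a mean-variance trend on log2(normalized count + 1), two-sided, with treatment as the sole factor and p-values adjusted by Benjamini-Hochberg over every gene tested. edgeR 4.0.16 and DESeq2 1.42.0 on the recovered reads were alternatives, and called 15744 and 15706 genes against 15863. With 3 against 3 libraries an exact permutation test cannot give a p below 0.1 and was not used. The scripts were tested on simulated data. No library was a copy of another: pairs within a group had a mean chi-square of 17.1 to 149.7 per gene.

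The genes and lists were chosen with earlier results of these data known. Every gene of the list is named; of each further list up to 3 called genes with the smallest adjusted p in its more frequent direction and up to 2 in the other are named, with EIF2AK3, ATF4, DDIT3, ATF6B, MBTPS1 and MBTPS2 in any case; 1 gene that this rule selects is not reported here. KDELR2 and KDELR3, paralogs of a named gene, were added after their values were seen. So were PDIA2, TMX1, TMX2, TMX3, TMX4, ERLEC1, CREB3 and CREB3L1. Rows of 17 of the 38 genes overlap another expressed row, and XBP1, HSP90B1 and PDIA3 have pseudogenes, so reads could be shared. Protein features were not analysed here. Promoter sequences are those of RefSeq (GRCh38.p14).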

Additional observations from a re-analysis of the deposited data

How the results depend on the processing

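Under all 17 alternatives 30 to 32 of the 38 genes fell and 2 to 4 rose, and 14483 to 16102 of all genes were called. The roles kept their counts of falls except ERAD (7 to 8) and the sensors and transcription factors (3 to 4). The count of chaperones that rose, 2, was 1 with total-count scaling and without the mean-variance trend, and 1 to 2 when each library was left out in turn, because DNAJC3 lost its call. The count of ERAD genes that rose, 1, was 2 with quantile normalization and 1 to 2 over the left-out libraries, because SELENOS passed the threshold. The sign of DERL1, which was not called, turned with quantile normalization (0.024), without BEZ235 replicate 3 and without DMSO replicate 1, with a range of -0.052 to 0.046 over the left-out libraries. That of DERL3 turned without DMSO replicate 1, with a range of -0.13 to 0.49. The cause was not tested. Of 645 values of single genes under the alternatives, 625 kept direction and side of the threshold. With the replicate number as a block 15917 genes were called, 31 of the 38 fell and 3 rose; same-numbered libraries did not deviate together (correlations of -0.04, 0.02 and 0.04), so the numbers were not taken as pairs. Values near 20 normalized counts, such as those of DERL3, are too low for a firm statement.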
